A study of Mus musculus with 12 samples.

Results

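The cytosolic ribosomal proteins of gastrocnemius muscle were followed in a mouse model of facioscapulohumeral muscular dystrophy (FSHD), a disease of misexpressed DUX4. The genes were taken by name, as symbols that begin with Rpl or Rps followed by a number and at most an ending a, l or x, which leaves out pseudogenes and the S6 kinases. Of 77 names matched among 37748 genes, 75 had at least 10 counts in at least 3 mice, 44 of the large (60S) subunit and 31 of the small (40S) subunit. All 75 passed the filter on low counts and were among the 16679 genes tested. The names not kept were Rpl39l, with at most 6 counts in any mouse, and Rpl10l, with 0 counts in all 12.

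RNA-seq was performed on 12 mice of 13 weeks, 3 in each of 4 groups. ACTA1-MCM/+ controls carried the MerCreMer transgene, a tamoxifen-dependent Cre expressed from a skeletal actin promoter, and FLExDUX4/+ mice (FLExD) carried the human DUX4 transgene in its silent orientation without Cre and are labelled both as single transgenic and as mild pathology. Neither group received tamoxifen. The moderate and severe models were bi-transgenic FLExDUX4/+;MCM/+ mice, taken 9 days after 1 injection of 5 mg/kg or 2 injections of 10 mg/kg tamoxifen, so genotype and tamoxifen cannot be told apart against the controls. Recombination in the bi-transgenic animals occurs in a mosaic of skeletal muscle fibres.

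A ribosome joins its ribosomal RNAs with a full set of ribosomal proteins, and the proteins are made in concert because a missing subunit stalls assembly. Their mRNAs are among the most abundant of most cells. They typically begin with a run of pyrimidines at the cap, the TOP motif, through which mTOR signalling controls their translation. Skeletal muscle differs from most tissues in one member: Rpl3, which lies close to the peptidyl transferase centre, has a paralog, Rpl3l, whose expression is largely restricted to skeletal muscle and heart and which takes the place of Rpl3 in the ribosome.

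The libraries held 23796902 to 29136403 counts per mouse. Fibre transcripts took a large part of the control libraries and less of the diseased ones. The mitochondrial genome and the 20 most abundant genes together held 58.2% to 60.5% of counts in control and FLExD mice, 48.6% to 50.6% in moderate mice and 31.2% to 33.9% in severe mice. The labels were checked with Wfdc3, a gene induced by DUX4 in mouse muscle, which stood at 0.23 ± 0.14 CPM (counts over the TMM-adjusted total of the library, SD, n = 3) in controls, 76.3 ± 13.4 in moderate and 87.5 ± 26.7 in severe mice. Esr1, whose sequence is part of the MerCreMer transgene, was at 652 ± 206 CPM in controls and 31.7 ± 5.5 in FLExD mice, which lack that transgene. In the bi-transgenic mice, which carry it, Esr1 was at 111 ± 13.9 CPM (moderate) and 36.1 ± 1.16 CPM (severe). Its mean in moderate mice was thus above that of FLExD mice. Its level did not separate severe mice from mice without MerCreMer and gives no check of the severe labels. Library sizes were adjusted with TMM factors of 0.706 to 0.76 in control and FLExD mice, 1.06 to 1.13 in moderate and 1.69 to 1.87 in severe mice.

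The Rpl3 and Rpl3l mRNAs exchanged places. Rpl3 rose and Rpl3l fell in both diseased groups, and Rpl3l went from the majority of the pair in every control and FLExD mouse to a minor part in every severe mouse. Rpl3 (ENSMUSG00000060036) lies on the minus strand at chr15:80077791-80091868 (GRCm38), and Rpl3l (ENSMUSG00000002500) on the plus strand at chr17:24727820-24736143. Because the reads of 2 paralogs can be confused, their coding sequences from GENCODE M21, 1212 bases for Rpl3 and 1224 for Rpl3l, were aligned. Of 1208 aligned bases 74.4% were identical, and the longest run without a difference was 22 bases. The first 60 coding bases and the window around that longest run, bases 125 to 186 of both, show how far the messages differ; capitals mark the bases that differ between the pair, 13 in the first window and 11 in the second.
Rpl3, coding bases 1 to 60: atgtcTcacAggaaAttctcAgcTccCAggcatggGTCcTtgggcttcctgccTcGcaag
Rpl3l, coding bases 1 to 60: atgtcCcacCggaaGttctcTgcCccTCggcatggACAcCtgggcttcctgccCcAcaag
Rpl3, coding bases 125 to 186: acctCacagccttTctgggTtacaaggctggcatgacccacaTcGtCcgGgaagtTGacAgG
Rpl3l, coding bases 125 to 186: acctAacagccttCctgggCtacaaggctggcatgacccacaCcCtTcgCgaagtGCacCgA
Of the 1593 different 50-base sequences in the coding transcripts of Rpl3l, 0% occurred in another gene of the annotation. Rpl3 shared 67.1% of its 50-base sequences with 8 copies, and it held 98.3% of the counts summed over itself and the 4 of these that are in the table.

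Rpl3 was at 33.2, 35.1 and 39.97 TPM (a level per transcript length that sums to the same total in every library) in the 3 controls and at 30.2, 36.4 and 39.1 TPM in FLExD mice. It reached 158, 147 and 151 TPM in moderate mice and 573, 510 and 463 TPM in severe mice. The groups were ordered without overlap, except that control and FLExD mice covered the same range. On the TMM scale the log2 fold change from controls was 1.58 ± 0.10 (SE) in moderate mice (edgeR quasi-likelihood test, adjusted p = 2.46e-08) and 2.61 ± 0.10 in severe mice (adjusted p = 9.54e-11). The severe model exceeded the moderate model by 1.03 ± 0.10 (edgeR adjusted p = 3.05e-06).

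Rpl3l ran the other way, from 113, 114 and 121 TPM in controls and 105, 105 and 134 TPM in FLExD mice to 50.2, 82.2 and 65.8 TPM in moderate mice and 10.8, 21.1 and 16.9 TPM in severe mice. Every moderate mouse was below every control, and every severe mouse below every moderate mouse. The log2 fold changes were -1.31 ± 0.20 in moderate mice (edgeR adjusted p = 0.000108), -4.06 ± 0.22 in severe mice (adjusted p = 4.18e-09) and -2.74 ± 0.21 between severe and moderate (adjusted p = 1.84e-06). In a bulk sample, fewer cells of a type and less RNA per cell cannot be told apart, and this holds for every difference given here.

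The ratio of the pair within a mouse does not depend on how the libraries are scaled. The log2 ratio of Rpl3l to Rpl3 in TPM was 1.69 ± 0.084 (SD, n = 3) in controls, 1.70 ± 0.15 in FLExD mice, -1.23 ± 0.41 in moderate mice and -5.03 ± 0.61 in severe mice. It differed from controls by -2.92 in moderate and by -6.73 in severe mice, and by -3.80 between severe and moderate, with groups that did not overlap and a two-sided exact permutation p = 0.1 each, the smallest that 3 against 3 mice allow. The FLExD ratio differed from controls by 0.0097 (exact permutation p = 0.8). Adjusted over these 4 comparisons, p was 0.133 for the 3 with diseased mice and 0.8 for FLExD.

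Rpl3l supplied 75.2% to 77.3% of the summed TPM of the pair in controls, 74.2% to 77.6% in FLExD mice, 24.1% to 35.9% in moderate mice and 1.85% to 3.98% in severe mice. The pair together took 1.05% ± 0.017 (SD, n = 3) of the TPM of all 75 members in controls, 1.04% ± 0.054 in FLExD mice, 1.12% ± 0.049 in moderate mice and 1.47% ± 0.076 in severe mice. The severe mice, at 1.42% to 1.56%, were above all 9 others.

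**Figure D1:**
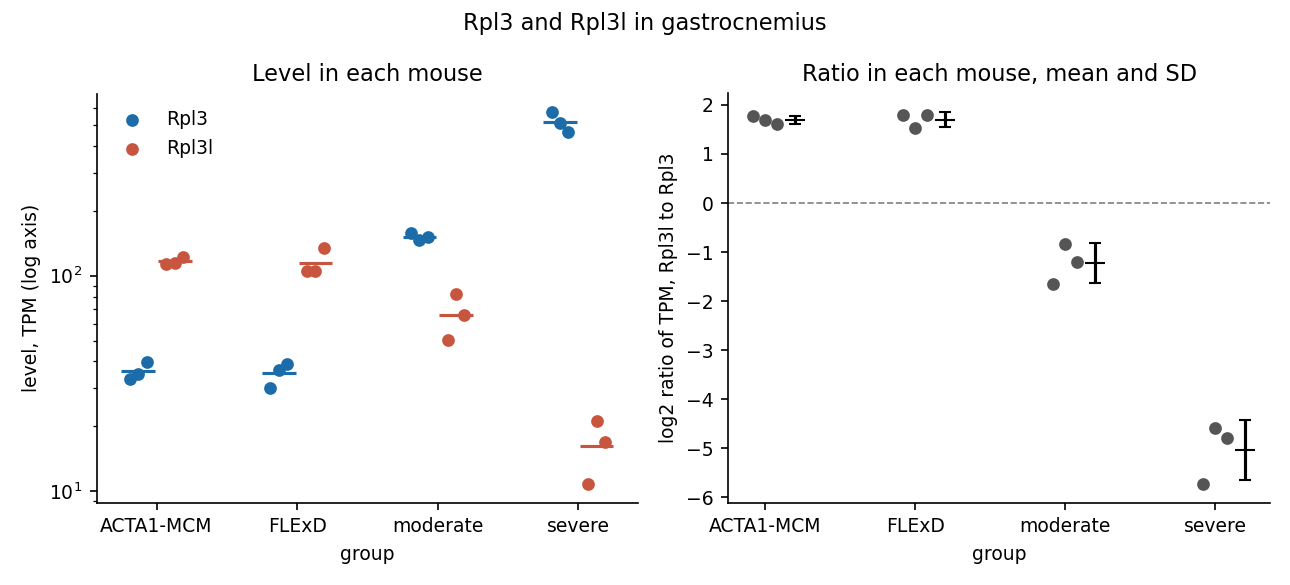
Levels of Rpl3 and Rpl3l in TPM on a log axis (left, 1 point per mouse, bars at the group mean) and the log2 ratio of Rpl3l to Rpl3 in each mouse (right, mean and SD beside the points) for the 4 groups of 3 mice. The ratio was positive in all control and FLExD mice and negative in all moderate and severe mice, with means of 1.69, 1.70, -1.23 and -5.03.

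Over the 75 members, this pair included, the quartiles of log2 fold change lay closer together than over all genes tested, on the TMM scale used for the values that follow. The same held in FLExD mice, where 0 members were called, at -0.047 and 0.017 beside -0.12 and 0.11. Members were not compared with genes of like counts, so a part of precision in the narrower spread was not tested. The median log2 fold change of the 75 members against controls was -0.036 in moderate mice (quartiles -0.16 and 0.058), beside 0.041 for all genes tested (quartiles -0.40 and 0.64). In severe mice it was 0.20 (quartiles -0.038 and 0.33), beside 0.082 for all genes (quartiles -0.69 and 0.98). The severe model stood above the moderate model by a median of 0.17, beside 0.018 for all genes, with 66 of the 75 members positive, and by -0.0046 when scaled to summed member counts. For moderate mice, without control replicate 2 the median was -0.11.

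A member was counted as called where the edgeR adjusted p was under 0.05 and the log2 fold change was 0.5 or more in size. In moderate mice 2 members were called higher, where 24.4% of all genes were, and 3 lower, where 17% of all genes were. In severe mice 7 were called higher and 2 lower, against 32.9% and 27.9% of all genes. Between severe and moderate 5 were called higher and 1 lower, against 17.6% and 18.8% of all genes. Without moderate replicate 3 the count called higher was 8, against 15.7% of all genes. Groups did not overlap in CPM for 34 members in moderate mice (61% of all genes), for 56 in severe mice (75% of all genes) and for 55 between severe and moderate (61.3% of all genes).

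The subunits had similar medians. In severe mice the median was 0.19 over the 44 genes of the 60S subunit, of which 5 were called higher and 2 lower, and 0.24 over the 31 genes of the 40S subunit, of which 2 were called higher and 0 lower. In moderate mice the medians were -0.039 and -0.034, with 2 higher and 2 lower in the 60S and 0 higher and 1 lower in the 40S subunit. The difference between subunits was not tested.

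**Figure D2:**
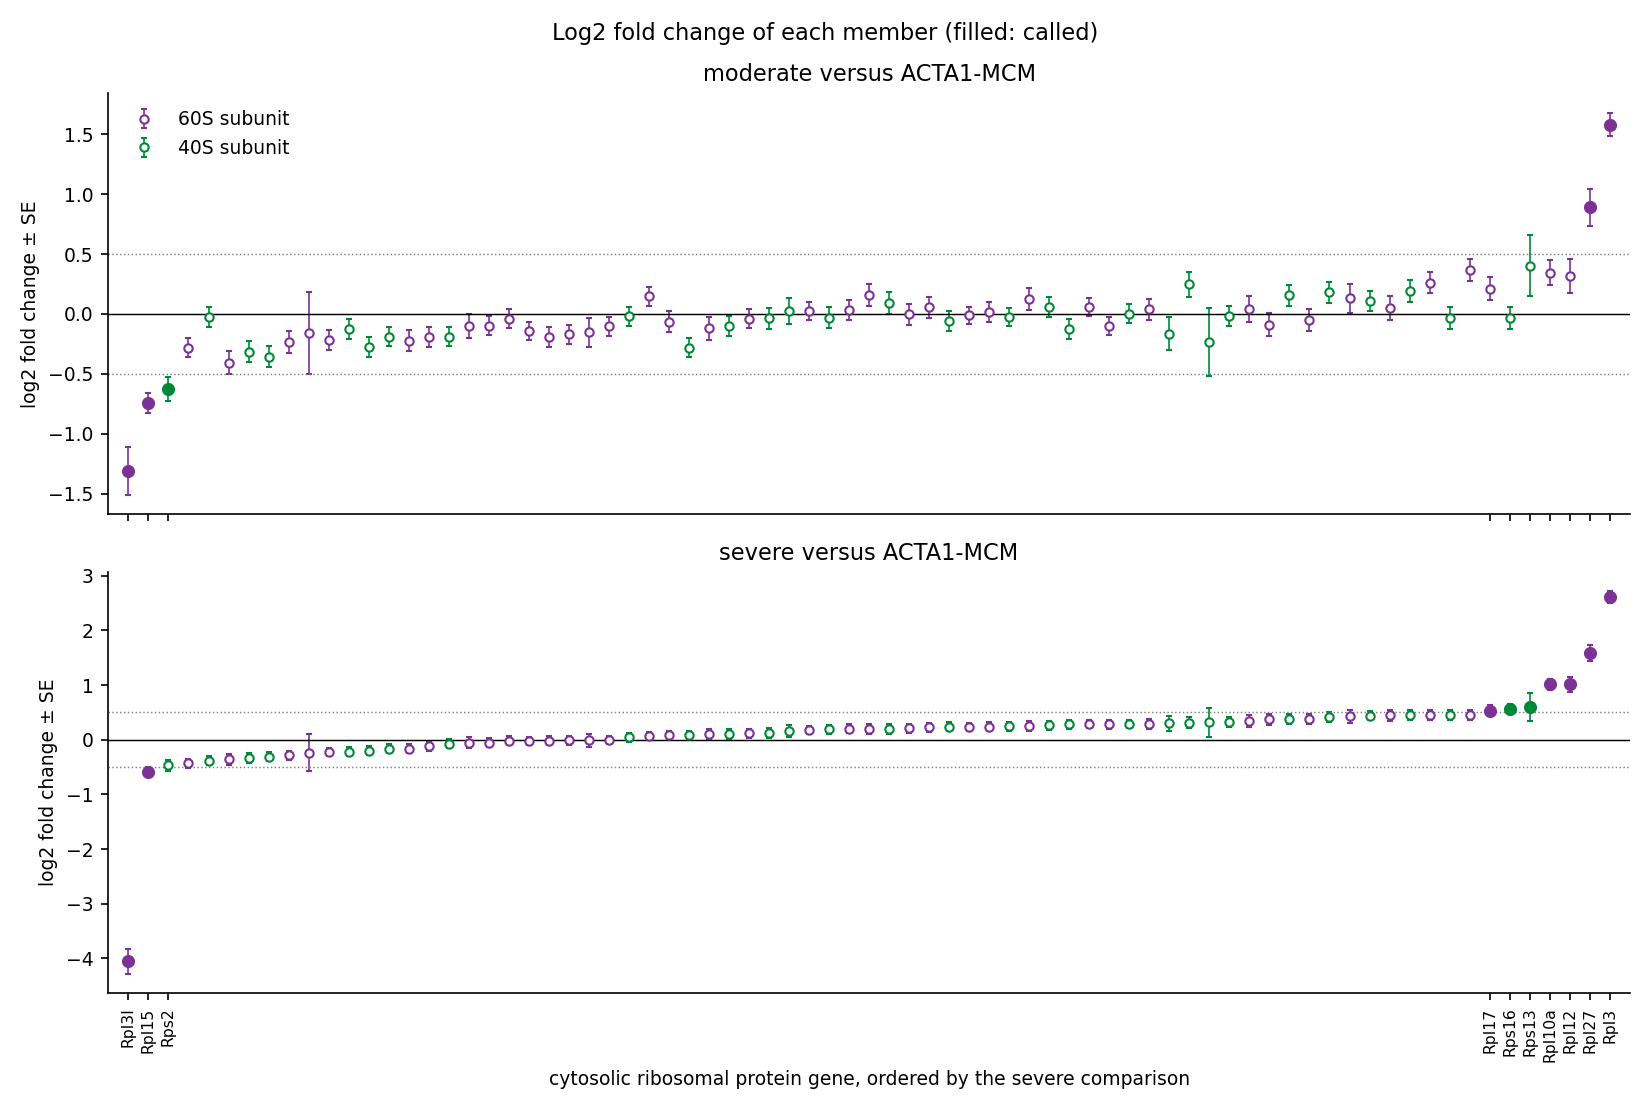
Log2 fold change ± SE of each of the 75 members in the moderate (top) and severe (bottom) model against ACTA1-MCM controls on the TMM scale, ordered by the severe value, with colours for the 60S and 40S subunit, filled points for called members, names for those called in either model, and dotted lines at 0.5 and -0.5. Rpl3 and Rpl3l lie at the ends, and most other members lie between the dotted lines, whereas with library size alone the members' medians were 0.57 and 1.5.

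The direction of the family as a whole depended on the scaling of the libraries. Summed over the members, the share of all counts was 0.747% to 0.796% in controls, 0.726% to 0.807% in FLExD mice, 1.06% to 1.17% in moderate and 1.94% to 2.12% in severe mice, so the members took a growing part of the library. On TMM-adjusted library sizes the same sum was 10398 to 10991 CPM in controls, 9949 to 10382 in moderate and 11105 to 11797 in severe mice. With library size alone the members' median log2 fold change was 0.57 in moderate and 1.5 in severe mice, with 50 and 74 members called higher and 1 called lower in each, where 52.5% and 75.4% of all genes were called higher and 4.51% and 6.42% lower. That scaling moved the median of all genes to 0.65 and 1.38, and with library size less the mitochondrial and 20 most abundant genes the members' medians were 0.26 and 0.77, with 9 and 59 called higher and 1 lower in each, beside 35.2% and 52.5% of all genes higher and 8.66% and 15% lower. A change of library factor moves members and all genes alike, so the distance of the members from the median of all genes, -0.077 in moderate and 0.12 in severe mice with TMM factors, is fixed among these scalings. It was -0.0013 and 0.27 over genes with at least 10 counts in every sample, 0.16 and 0.61 with limma on log2(TPM + 1) and 0.022 and 0.29 with limma on log2(TPM + 0.1), so its sign in moderate mice depended on the method.

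Scaled to their own summed counts, which compares members only with one another, 4 members were called higher and 4 lower in severe mice. On that scale 30.3% of all genes were called higher and 30.5% lower. Rpl3 (2.52), Rpl27 (1.49), Rpl12 (0.92) and Rpl10a (0.92) gained within the family, and Rpl3l (-4.15), Rpl15 (-0.68), Rps2 (-0.57) and Rpl24 (-0.53) lost. With TMM factors 2 of these 8 fell short of the fold threshold in severe mice, Rps2 at -0.47 ± 0.10 and Rpl24 at -0.43 ± 0.080.

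**Figure D3:**
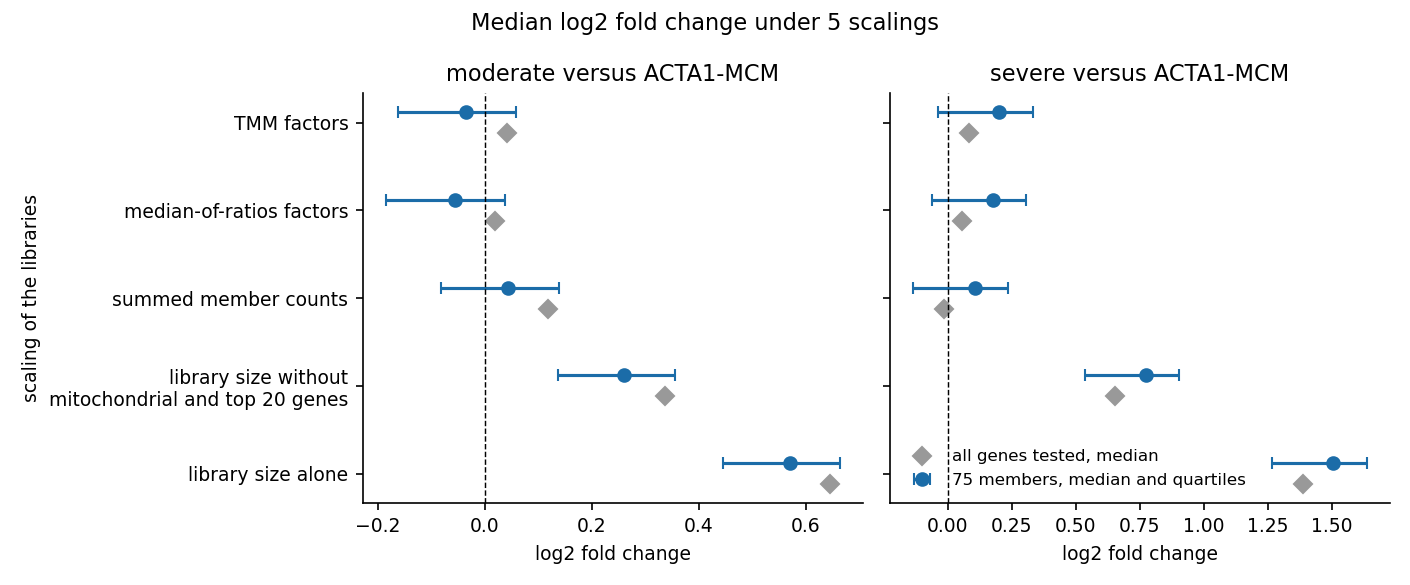
Median log2 fold change of the 75 members (circles, bars from the lower to the upper quartile) and of all genes tested (diamonds) under 5 scalings of the libraries, in the moderate (left) and severe (right) model against ACTA1-MCM controls. The members' median in moderate mice turned from -0.036 with TMM factors to 0.57 with library size alone, where the median of all genes moved from 0.041 to 0.65, since a library factor moves all genes alike.

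The other called members carried a second limit. Ribosomal protein genes have many processed copies in the genome, and RSEM divides a read among the transcripts it fits, so counts can pass from a member to a near-identical copy. A total of 383 copies in the table shared 50-base sequences with 65 of the members, and 9 of these copies were not annotated as pseudogenes. Of the 75 members, 50 held at least 90% of the counts summed over themselves and their copies, 16 held under 50% and 9 under 10%. Each member was therefore also tested after adding the counts of its copies, an alternative chosen after the data had been seen.

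Rpl27, a 60S protein, stood at 4.25, 3.56 and 4.74 CPM in controls, 9.33, 7.37 and 6.56 in moderate and 12.6, 12.8 and 12.2 in severe mice. It rose by 0.89 ± 0.15 (log2) in moderate mice (edgeR adjusted p = 0.000216) and 1.58 ± 0.15 in severe mice (adjusted p = 3.06e-07), with all 3 groups apart. It held 5.96% of the counts summed with its copies, and summed with them its severe difference was 0.34 ± 0.089, which was not called.

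Rpl12, which forms the base of the stalk where elongation factors dock, was at 7.92, 6.84 and 7.58 CPM in controls and 16.4, 15.4 and 13.4 in severe mice, a log2 difference of 1.02 ± 0.14 (edgeR adjusted p = 1.08e-05). Rpl10a, of the mobile stalk at the tRNA exit side, was at 14.8, 12.5 and 11.9 CPM in controls and 28.6, 25.8 and 24.6 in severe mice, a log2 difference of 1.01 ± 0.10 (edgeR adjusted p = 6.4e-07). Severe mice lay above controls without overlap for both. Rpl12 held 5.39% and Rpl10a 11.4% of the counts summed with their copies, and summed they differed by 0.12 ± 0.093 and 0.45 ± 0.083, neither called.

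Smaller rises in severe mice on the TMM scale were called for Rps16 (0.56 ± 0.09), whose tail reaches the P-site tRNA, for Rpl17 (0.53 ± 0.10), of the exit tunnel, and for Rps13 (0.60 ± 0.25), a 40S protein. Rps16 was at 44.8, 34.8 and 43.0 CPM in controls and 61.2, 62.3 and 57.6 in severe mice (edgeR adjusted p = 6.83e-05), and Rpl17 at 100.5, 88.5 and 98.9 and at 142, 133 and 141 (edgeR adjusted p = 0.00018), both without overlap. The edgeR adjusted p of Rps13 was 0.0449. Rps13 was at 3.03 to 3.83 CPM in controls and at 3.47, 7.12 and 5.05 in severe mice, so its groups overlapped. Without severe replicate 2 it was at 0.31 (edgeR adjusted p = 0.258), and its call was lost also without control replicate 1, 2 or 3 and without severe replicate 3. Without control replicate 2 Rps16 was at 0.44 and Rpl17 at 0.46, and neither was called. This left 4 members called higher, where 31% of all genes were. Summed with copies Rps16 was at 0.37, Rpl17 at 0.42 and Rps13 at -0.045, none of them called.

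Rpl15, a 60S protein, was at 50.1, 41.5 and 49.1 CPM in controls, 27.5, 26.5 and 29.8 in moderate and 30.8, 31.6 and 31.6 in severe mice. Both diseased groups lay below all controls, with log2 fold changes of -0.75 ± 0.08 (edgeR adjusted p = 4.98e-06) and -0.58 ± 0.08 (adjusted p = 2.19e-05). With library size alone these differences were -0.14 and 0.72, and with no filter on low counts the severe difference was -0.48, which was not called. Rpl15 held 17.5% of the counts summed with its copies, and summed it differed by -0.13 ± 0.084 and -0.037 ± 0.084, neither called.

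Rps2, at the entry of the mRNA channel, was the member with the highest level in controls, at 634 ± 29.4 TPM (SD, n = 3). It stood at 699, 668 and 699 CPM in controls, 446, 468 and 424 in moderate and 489, 486 and 517 in severe mice. All diseased mice were below all controls and below FLExD mice, which were at 660 to 781 CPM. The moderate difference was -0.63 ± 0.10 (edgeR adjusted p = 0.000141) and was also called with copies summed, at -0.63, since Rps2 held 99.1% of the summed counts. The severe difference of -0.47 was called without control replicate 2 (-0.51) or without severe replicate 3 (-0.50), and was 0.83 with library size alone, where the moderate difference was -0.021.

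With copies summed, Rpl3 (2.57 ± 0.10 in severe mice) and Rpl3l (-4.06 ± 0.22) were called as before in all 3 comparisons with diseased mice. The other calls in severe mice were then Rps12, a 40S protein, at 0.65 ± 0.084, which alone was at 0.16 and held 5.42% of the summed counts, and Rpl41, the smallest ribosomal protein, at 0.56 ± 0.099, which alone was at 0.44 and held 93.5%. Counted this way, 3 members were called higher and 1 lower in severe mice, 1 higher and 2 lower in moderate mice, and 2 higher and 1 lower between them. Beside them, 33% of all genes were higher and 28% lower in severe mice, and 24.5% and 17.1% in moderate mice. Between severe and moderate the shares were 17.8% and 18.8%.

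**Figure D4:**
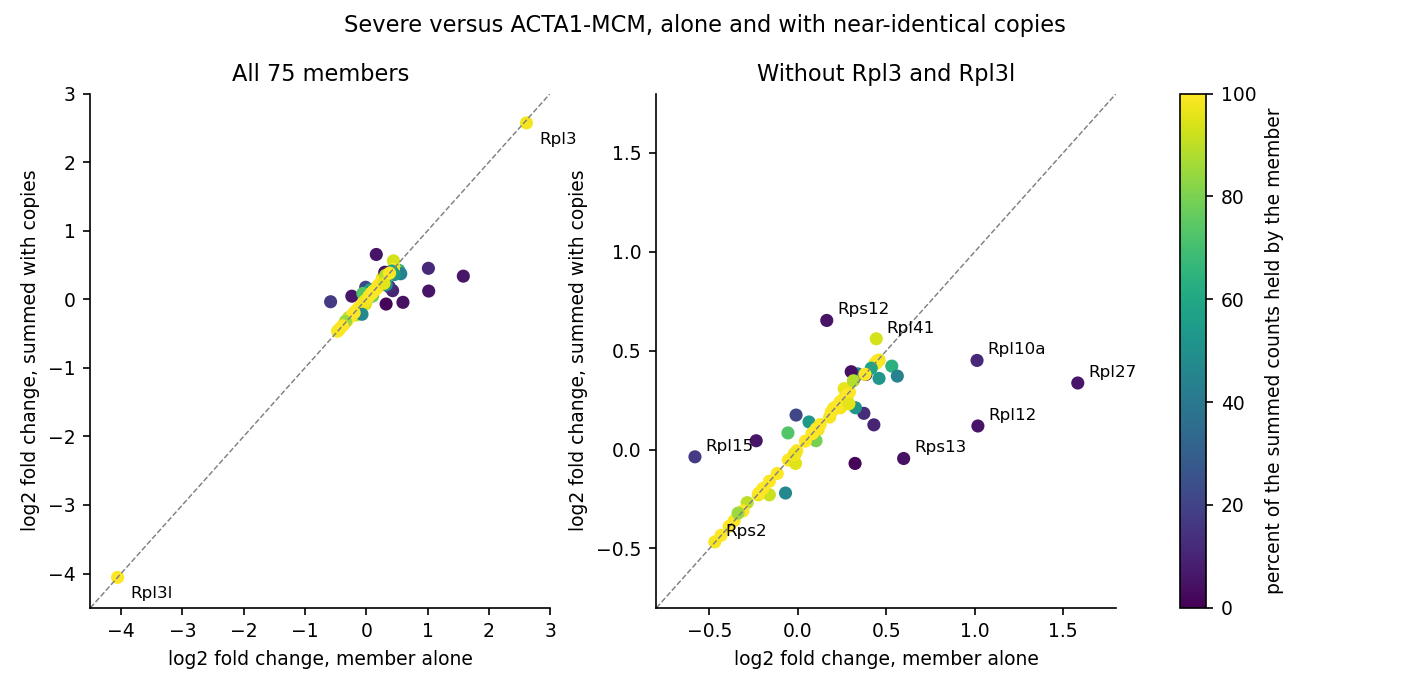
Log2 fold change in severe mice against ACTA1-MCM controls on the TMM scale for each member alone (x axis) and after its counts were summed with those of its copies (y axis), coloured by the percent of the summed counts that the member held, for all 75 members (left) and without Rpl3 and Rpl3l (right). Rpl3 and Rpl3l lie on the dashed line of equal values, whereas Rpl27, Rpl12, Rpl10a and Rps13 lie below it at 0.34, 0.12, 0.45 and -0.045.

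Besides Rpl3 and Rpl3l, 4 further pairs of paralogs had enough counts in both genes, and their ratios were compared in the same way over 16 comparisons. Rpl36al, a retrocopy that encodes nearly the same protein as Rpl36a, had a log2 TPM ratio to Rpl36a of 0.21 ± 0.10 (SD, n = 3) in controls, 0.084 ± 0.023 in moderate and -0.47 ± 0.094 in severe mice. The severe mice were apart from controls by -0.68 and from the moderate mice by -0.56, without overlap (exact permutation p = 0.1, adjusted p = 0.32 for each). The ratio of Rps27l, a paralog of Rps27 known as a p53 target, differed by -0.72 between severe and moderate mice, again without overlap (exact permutation p = 0.1, adjusted p = 0.32). Rps27 held 0.975% of the counts summed with its copy, at 18 to 76 counts per mouse, so this ratio rests on few reads.

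The ratio of Rpl22l1, the paralog of Rpl22 that Rpl22 represses, to Rpl22 was -0.41 ± 0.19 in controls and -0.74 ± 0.042 in severe mice (exact permutation p = 0.1, adjusted p = 0.32), a difference of -0.33 in TPM and of -0.068 in counts. Rpl7l1 to Rpl7, where Rpl7l1 is thought to act in assembly, was -3.67 ± 0.13 in controls and -3.61 ± 0.13 in severe mice (exact permutation p = 0.6). None of the 16 comparisons reached an adjusted p of 0.05, which no comparison of 3 against 3 mice could reach. Over all pairs, the change of -6.73 in Rpl3l to Rpl3 in severe mice compares with differences between -0.68 and 0.066 in the other 4.

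Levels within the family spread widely in every group. In controls Rps2 (634 TPM) and Rpl41 (467 ± 40.9) were highest, and Rpl27 (6.31 ± 0.89), Rps13 (5.70 ± 0.52) and Rps27 (2.31 ± 0.55) lowest (SD, n = 3). The 3 lowest members each held under 10% of the counts summed with their copies, and their levels depend on how reads were divided. As a share of the members' TPM, Rps2 went from 4.35% ± 0.071 in controls to 2.95% ± 0.14 in moderate and 2.93% ± 0.030 in severe mice. Rpl41 went from 3.20% ± 0.11 to 3.46% ± 0.21 and 4.09% ± 0.28, and it was the highest member of the severe model at 1473 TPM.

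The sequence at the start of the gene was examined as a feature that the names do not fix. RefSeq promoter windows (GRCm38.p6, 250 bases before to 50 after the annotated start) were matched for 55 of the 75 members. A tract of C and T that begins with C, the form of the TOP motif, was sought on the coding strand where it overlaps the 10 bases on either side of the start. A tract of at least 8 bases was found in 27 of 55 members (49.1%), in 12.5% of all 27025 genes with a window and in 8 of 67 genes of mitochondrial ribosomal proteins (11.9%). Tracts of at least 12 bases were found in 21.8% of members, 3.69% of all genes and 0% of the mitochondrial set. The 4 windows below, 40 bases before and 30 from the start on, show a long tract in Rpl13a, chosen after its values were seen, and in Rpl15, and the shorter ones of Rps2 and Rpl3l, with the tract in capitals. The median tract was 7 bases over the members and 4 over all genes.
Rpl13a, chr7:45128716-45128785, minus strand: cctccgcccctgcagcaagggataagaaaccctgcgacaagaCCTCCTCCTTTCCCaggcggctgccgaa
Rpl15, chr14:18270957-18271026, minus strand: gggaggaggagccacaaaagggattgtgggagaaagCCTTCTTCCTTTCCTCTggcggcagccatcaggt
Rps2, chr17:24720023-24720092, plus strand: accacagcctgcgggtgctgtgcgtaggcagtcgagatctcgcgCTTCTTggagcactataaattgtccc
Rpl3l, chr17:24727786-24727855, plus strand: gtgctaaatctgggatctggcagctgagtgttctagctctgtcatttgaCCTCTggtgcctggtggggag
The tract had 14 bases in Rpl13a, a 60S protein at a log2 difference of 0.45 in severe mice, short of the fold threshold, 17 in Rpl15, 6 in Rps2 and 5 in Rpl3l. Within its window of 300 bases Rpl3l had 4 matches to CANNTG, the E-box bound by myogenic factors, where Rpl13a and Rps2 had 1 and Rpl15 had 0. Matches were not counted over all genes, so no background stands beside these picked windows, and binding was not tested. These matches describe the letters of a window whose start comes from the annotation and may differ from the start used in muscle.

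No member was called between FLExD mice, which carry the transgene without Cre, and controls. Of the 75, 0 were called higher and 0 lower by edgeR, where 0% of all genes were called higher and 0.006% lower. The count was 0 also with DESeq2, where 0.024% of all genes were called higher and 0.018% lower. With limma it was 0 too, beside 0.006% of all genes in each direction. At an unadjusted edgeR p under 0.05 it was 0, and the share of all genes at that threshold was not counted. The median log2 fold change was -0.011, and CPM did not overlap in 4 members against 8.6% of all genes. The member with the smallest p was Rpl5, a partner of the 5S ribosomal RNA, at 34.9, 31.6 and 29.8 CPM in FLExD and 36.4, 36.1 and 37.8 in control mice, a difference of -0.19 ± 0.10 (edgeR adjusted p = 1).

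The remaining genes of the ribosome and of its production were described from lists. On the TMM scale 32.9% of all genes tested were called higher and 27.9% lower in severe mice. In moderate mice the shares were 24.4% and 17%. No list was tested against these shares. Of 10 other cytosolic ribosomal protein genes (Rplp0, Rpsa and others whose names the rule does not match), 1 was called higher and 0 lower in severe mice, namely Fau, the precursor of a 40S protein, at 0.51 ± 0.084 (edgeR adjusted p = 7.55e-05). Their median was -0.096, and 0 were called in moderate mice.

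Genes named for proteins of the mitochondrial ribosome, which makes the subunits encoded by mitochondrial DNA, formed a further list. They were taken by symbols that begin with Mrpl or Mrps, and whether each product is part of that ribosome was not checked. The difference of the list from the cytosolic members was not tested. Of 76 genes of mitochondrial ribosomal proteins, 54 were called lower and 0 higher in severe mice, with a median of -0.78, on the TMM scale. In moderate mice 18 were called lower and 2 higher, with a median of -0.33. Of all genes tested 27.9% were called lower and 32.9% higher in severe mice, and 17% and 24.4% in moderate mice. With library size alone 38 of the 76 were called higher and 1 lower in severe mice, and 19 higher and 0 lower in moderate mice. That scaling called 75.4% and 52.5% of all genes higher. The largest falls were in Mrpl42, from 123 ± 2.4 to 25.9 ± 5.6 CPM (-2.24 ± 0.13), Mrps28, from 37.0 ± 2.5 to 11.1 ± 2.5 CPM (-1.74 ± 0.13), and Mrps36, from 32.0 ± 4.9 to 9.61 ± 1.27 CPM (-1.73 ± 0.14). For these 3 the severe difference was negative with library size alone too, at -0.95, -0.44 and -0.44.

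Among translation factors, the paralogs Eef1a1 and Eef1a2 moved in opposite directions. Their ratio within a mouse was not computed, and reads that they may share with copies or with each other were not examined. Eef1a1, the elongation factor of most tissues, rose from 405 ± 21.7 to 964 ± 122 and 2021 ± 168 CPM (SD, n = 3) in controls, moderate and severe mice, a severe log2 fold change of 2.32 ± 0.13 (edgeR adjusted p = 1.59e-09). Eef1a2, its counterpart of adult muscle and neurons, fell from 677 ± 51.9 to 457 ± 23.5 and 103 ± 33.7 CPM, by 2.72 ± 0.20 (edgeR adjusted p = 2.78e-08). With library size alone these differences were 3.63 and -1.43, so neither direction changed.

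Of 18 genes known for TOP mRNAs, Eef1a1 among them, 6 were called higher and 2 lower in severe mice and 5 higher and 1 lower in moderate mice. Beside this, TMM factors gave 32.9% of all genes higher and 27.9% lower in severe mice, and 24.4% and 17% in moderate mice. Pabpc1, the poly(A)-binding protein, rose by 1.85 ± 0.27 and Npm1, a nucleolar chaperone, by 1.36 ± 0.098, while Eef1g fell by 0.64 ± 0.089 and Eef1d by 0.59 ± 0.099, subunits of the exchange factor of elongation, on the TMM scale, whereas with library size alone Eef1g was at 0.66 and Eef1d at 0.71 and all 18 genes, like 75.4% of all genes tested, were called higher in severe mice. Of 35 genes of initiation and elongation, 4 were called higher and 13 lower in severe mice and 3 higher and 8 lower in moderate mice. Eif4a1, the helicase of initiation, rose by 1.75 ± 0.10 and Eif1a by 1.37 ± 0.13, and Eef2k, the kinase that inhibits elongation, fell by 1.46 ± 0.14 and Eif2b4, of the exchange factor of initiation, by 1.21 ± 0.10, while with library size alone these last 2 were at -0.16 and 0.083 and the severe counts were 28 higher and 1 lower, against the same 75.4% higher.

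Of 47 genes of ribosome biogenesis, 8 were called higher and 7 lower in severe mice, and 0 higher and 8 lower in moderate mice. The shares of all genes were 32.9% higher and 27.9% lower in severe mice, and 24.4% and 17% in moderate mice. Fbl, the methyltransferase of ribosomal RNA, rose from 4.54 ± 0.34 to 10.6 ± 1.1 CPM (1.22 ± 0.13), Nop58, of the same particle, by 1.02 ± 0.12, and Gar1, of the pseudouridylation particle, by 0.88 ± 0.20. Bccip fell by 1.15 ± 0.082, Nop10 by 1.05 ± 0.087 and Pno1 by 0.88 ± 0.077 on the TMM scale, and with library size alone these 3 were at 0.15, 0.25 and 0.42 and the severe counts were 44 higher and 0 lower, beside 75.4% higher among all genes.

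Of 13 genes of RNA polymerase I, which transcribes ribosomal RNA, 3 were called higher (Taf1d 1.27, Polr1c 0.84, Polr1e 0.60) and 4 lower in severe mice, with Rrn3 at -0.77, Polr1a at -0.62 and Znrd1 at -0.59, which with library size alone were at 0.54, 0.69 and 0.71. In moderate mice 1 was called higher and 2 lower. Of 16 regulators, 4 were called higher and 5 lower in severe mice and 3 and 3 in moderate mice. Beside these lists, 32.9% of all genes were called higher and 27.9% lower in severe mice on the TMM scale. In moderate mice the shares were 24.4% and 17%. Whether either list differed from these shares was not tested. Myc, which drives ribosome production, rose by 1.42 ± 0.30 and the kinase Akt1 by 1.25 ± 0.10, and Rptor, a subunit of the mTOR complex, by 0.69 ± 0.083. The largest falls among those with enough counts were in Tsc1 (-1.55 ± 0.096) and Tsc2 (-0.62 ± 0.078), which restrain mTOR, and in Mxi1 (-1.50 ± 0.088), an antagonist of Myc. With library size alone Tsc1 and Mxi1 were at -0.25 and -0.20 and Tsc2 at 0.68. In FLExD mice 0 genes of these lists were called.

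**Figure D5:**
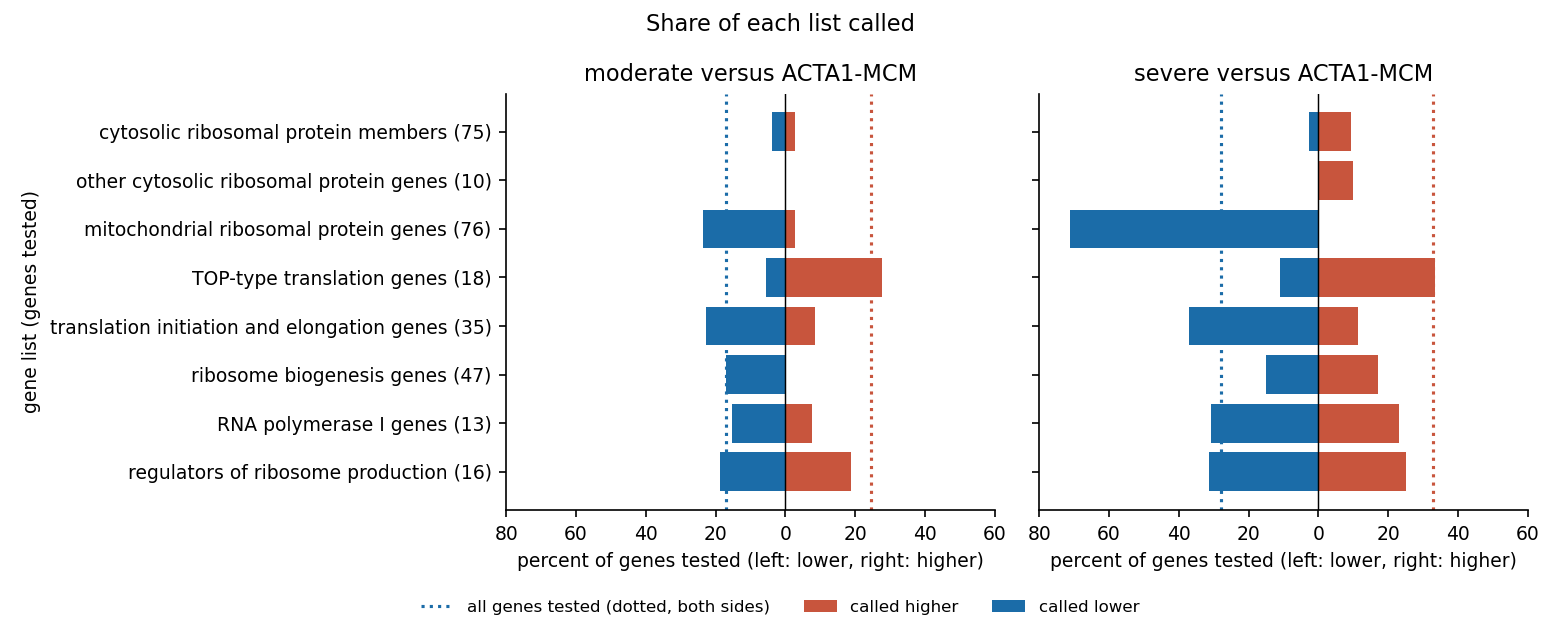
Percent of the genes tested that were called lower (left of 0) and higher (right of 0) in each list in moderate and severe model against ACTA1-MCM controls on the TMM scale, with the number of genes tested in brackets and dotted lines at the share of all genes tested. Of the 76 genes of mitochondrial ribosomal proteins 54 were called lower in severe mice, where library size alone gave 1 lower and 38 higher, and 2 of the 75 cytosolic members were.

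The levels of cell type markers differed between diseased mice and controls, and the cell makeup itself was not measured. Beside the marker counts, 32.9% of all genes were called higher and 27.9% lower in severe mice, and 24.4% and 17% in moderate mice. All 11 markers of skeletal muscle fibres were called lower in severe mice, and their summed level was 162154 to 212578 CPM in controls, 152265 to 186827 in FLExD mice, 69160 to 83382 in moderate and 10661 to 19053 in severe mice. Of 9 macrophage markers tested, 9 were called higher in both models, and their summed level was 121 to 144 CPM in controls, 121 to 136 in FLExD mice, 552 to 714 in moderate and 1298 to 1383 in severe mice. All 6 markers of dividing cells were called higher in both, at summed levels of 1.81 to 3.32, 1.73 to 2.03, 69.5 to 86.0 and 229 to 290 CPM in the same order, with Bub1 at 0 in all FLExD mice. In severe mice 4 of 5 satellite cell markers were called higher (18.3 to 22.2, 16.6 to 22.9, 29.6 to 40.01 and 65.9 to 74.8 CPM in the 4 groups), and 5 of 7 fibroblast markers higher and 1 lower (739 to 2155, 925 to 1196, 3015 to 3160 and 5380 to 7280 CPM). Endothelial markers were called lower for 4 of 5 on the TMM scale (164 to 177, 152 to 199.5, 109 to 143 and 85.8 to 96.2 CPM), with 2 higher and 1 lower with library size alone, and erythroid markers for 4 of 4 (349 to 427, 293 to 312, 170.2 to 331 and 32.0 to 78.7 CPM). Of 8 lymphocyte markers 2 passed the filter, with Cd4 called higher, Cd3d at 0 in all controls and a summed level of 0.67 to 1.04, 0.63 to 0.84, 1.10 to 1.29 and 2.57 to 4.32 CPM. In FLExD mice 0 of these markers were called. The part of these changes in the exchange of Rpl3l for Rpl3, and in the other differences given here, was not tested.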

How the data were processed

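Single-end RNA-seq reads of 12 gastrocnemius muscles were mapped by the authors with RSEM 1.2.4, modified to call Bowtie, to merged annotations of mm10, and unaligned reads with TopHat2 2.0.8b. The authors deposited expected counts per gene, without normalization, and TPM from the same RSEM estimates. Here, expected counts were rounded and tested with edgeR 4.0.16 (R 4.3.3): filterByExpr, TMM factors, robust quasi-likelihood fit of the 4 groups, and Benjamini-Hochberg adjustment over 16679 genes. A call needed an adjusted p below 0.05 with a log2 fold change of 0.5 or more in size. SEs derive from the F statistic. TPM were used for levels between genes and for ratios within a mouse.

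Each mouse is a labelled animal of its own. Shared reads were estimated from 50-base sequences of GENCODE M21 transcripts, and a copy had to share at least 50 with a member. Annotated pseudogenes needed no more than this. Other genes counted as copies only where at least 50% of their own sequences were shared. Alternatives were other scalings, DESeq2 1.42.0, limma 3.58.1 on log2(TPM + 1) and log2(TPM + 0.1), other filters, groups and thresholds, each mouse left out, and, added later, copies summed and members with at least 90% of the summed counts. In simulated data for the moderate comparison, edgeR recovered 175 of 200 changed genes among 14257, with 5 false calls. Levels and spread were taken from control and FLExD mice, and no other gene was changed. The simulation thus lacked the shift in library makeup seen in diseased mice and gives no error rates for the real comparisons.

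Members, lists and tests were chosen with earlier results of these data known. Members are named if they belong to a paralog pair, are among the 5 largest or 5 smallest differences called in a comparison, are called against the direction of the members' median, have the smallest FLExD p, or have the 3 highest or 3 lowest control TPM. Of each pathway list, up to 3 called genes per direction in severe mice with at least 50 counts are named, and Rpl24, Rps12 and Rpl13a were chosen after their values were seen. A member that this rule names is not reported here. The depth of 23796902 to 29136403 counts per mouse limits precision mainly for members under 100 counts, such as Rps27. Coding sequences were aligned with Biopython 1.88 and plots made by matplotlib 3.10.9 (Python 3.11.15).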

Additional observations from a re-analysis of the deposited data

How the results depend on the processing

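Rpl3 and Rpl3l kept their direction and call in the comparisons with diseased mice under every alternative run, and the ratio of Rpl3l to Rpl3 moved by less than the spread between mice with counts plus 0.5, with Rpl3 summed with its copies and with each mouse left out, where it ranged from -3.12 to -2.71 (moderate), -6.95 to -6.38 (severe), -4.02 to -3.46 (severe versus moderate) and -0.037 to 0.097 (FLExD). The family's direction did not hold. Library size alone gave medians of 0.57, 1.5 and 0.87 (moderate, severe, severe versus moderate), with 50, 74 and 72 members called higher and 1 lower in the first 2. Of all genes, that scaling called 52.5%, 75.4% and 57.8% higher, and 4.51% and 6.42% lower in the first 2. Library size without the mitochondrial and top 20 genes gave 0.26, 0.77 and 0.45, with 9, 59 and 27 higher and 1 lower in the first 2. The shares of all genes were then 35.2%, 52.5% and 31.1% higher, and 8.66% and 15% lower in the first 2. Summed member counts gave 0.042, 0.11 and -0.0046, with 4 higher and 4 lower in the severe model and 3 higher and 2 lower between severe and moderate. For all genes the shares were 30.3% higher and 30.5% lower in the severe model, and 12.3% and 26.2% between severe and moderate. limma gave 27, 74 and 73 higher and 1 lower in the first 2, with medians of 0.45, 1.40 and 0.89 for log2(TPM + 1) and 0.45, 1.40 and 0.89 for log2(TPM + 0.1). Of all genes, limma on log2(TPM + 1) called 31.5%, 64.1% and 48.2% higher, and 4.42% and 5.92% lower in the first 2. On log2(TPM + 0.1) these shares were 42.2%, 72.3% and 58.3% higher, and 5.56% and 6.79% lower. With no filter on low counts the medians were 0.022 and 0.30, with 15 higher and 1 lower in the severe model and 8 higher between severe and moderate, and with at least 10 counts in every sample 0.018, 0.31 and 0.23, with 15 higher, 1 lower and 9 higher. The matching shares of all genes were 22.6%, 15.6% and 11.4% with no filter. They were 32%, 29% and 17.7% with at least 10 counts in every sample. The cause was not tested.

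Copies summed gave 1 higher in the moderate, 3 higher and 1 lower in the severe model and 2 higher between them. The matching shares of all genes were 24.5%, 33% and 28%, and 17.8%. Only members with at least 90% of the summed counts gave 1 higher in each of the 3, 1 lower in the severe model and a severe median of 0.15. A fold threshold of 1 gave 1 higher and 1 lower (moderate), 4 higher and 1 lower (severe) and 1 higher (severe versus moderate). No fold threshold gave 5 and 12, 36 and 12, and 29 and 2. Shares of all genes at these other thresholds were not counted. With each mouse left out the medians ranged from -0.11 to -0.020, 0.17 to 0.21, 0.15 to 0.20 and -0.038 to 0.017 (FLExD), the counts higher from 2 to 2, 4 to 7, 5 to 8 and 0 to 0, and the counts lower from 3 to 3, 2 to 3, 1 to 1 and 0 to 0. The ratio of Rpl22l1 to Rpl22 in the severe model was -0.068 with counts.

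Scaling by library size moves the median of all genes from 0.041 to 0.65 (moderate) and from 0.082 to 1.38 (severe). Members with negative values smaller in size than that shift turn by construction, among them Rpl15 in severe mice, which TMM factors called lower. Over all 75 members, the number with negative values went from 46 to 3 (moderate) and from 25 to 1 (severe). Of those that turned, only named members called in at least 1 of the 2 settings are listed, here and for the other settings below. With library size alone they were Rpl22 (0.51), Rps4x (0.55), Rps27l (0.58), Rpl36a (0.59), Rpl39 (0.51), Rps16 (0.57) and Rpl5 (0.51) in the moderate and Rpl10 (1.29), Rpl22 (1.25), Rps27l (0.91), Rpl15 (0.72) and Rps2 (0.83) in the severe model. Without the mitochondrial and top 20 genes those listed were Rpl10 (0.56) and Rpl22 (0.52) in the severe model. In limma on log2(TPM + 1) those listed were Rpl22 (0.56) and Rpl15 (0.034) in the moderate and Rpl10 (1.15), Rpl22 (1.39), Rps27l (0.80), Rpl15 (1.02) and Rps2 (0.73) in the severe model, and on log2(TPM + 0.1) Rpl22 (0.56), Rpl15 (0.036), and Rpl10 (1.17), Rpl22 (1.40), Rps27l (0.81), Rpl15 (1.05) and Rps2 (0.74). Rps13 was at -0.045 in the severe model with copies summed. Of the values of single named members under settings other than leaving out a mouse, 106 newly passed the threshold and 28 no longer did. Another 29 turned sign and were called in at least 1 of the settings compared. The remaining 508 kept their side of the threshold, among them values that turned sign without a call in either setting.

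No paired analysis was possible because the labels number mice individually and share no number between groups.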
